A study of Mus musculus with 6 samples.

Results

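The matrix metalloproteinases (MMPs) and the tissue inhibitors of metalloproteinases (TIMPs) were followed in mouse bone marrow-derived macrophages through 10 genes chosen by name: Mmp2, Mmp8, Mmp9, Mmp12, Mmp13, Mmp14, Mmp19, Timp1, Timp2 and Timp3. All 10 were found by symbol among 26835 genes with values, and all 10 were at 1 FPKM or more in every library, so that none entered the test through one group alone. FPKM is a fragment count scaled to exon length and to the library total, so levels can be compared between genes.

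The macrophages were primary cells from wild-type BALB/c mice of 5 to 8 weeks, grown from marrow over 6 days in medium with 10% serum and 25 ng/ml of M-CSF, the growth factor that drives macrophage differentiation. The PBS group received phosphate-buffered saline alone and the K7M2-EV group received 10 µg of extracellular vesicles shed by the mouse osteosarcoma line K7M2, each for 24 h. Each group held 3 libraries, described as independent experiments, and vesicles of another origin were not analysed here. The comparison asks how vesicles of the tumour line change macrophage gene expression.

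MMPs are zinc-dependent enzymes that cut collagens, elastin and other matrix proteins, and many also release cytokines and growth factors. Most are secreted as inactive proenzymes whose propeptide has to be removed, while Mmp14 sits in the plasma membrane. TIMPs block the active site, and they also bind some proenzymes: TIMP-1 binds that of MMP-9, and TIMP-2 takes part with MMP-14 in the activation of that of MMP-2. In bone, macrophage-lineage cells and stromal cells both supply these proteins.

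The library totals at which the low values came closest to whole reads were 21436000 to 25606000 reads. With these totals the thinnest member value, Mmp8 in PBS replicate 2, rested on about 81 reads. The 12 macrophage markers were all expressed, with Lyz2, the lysozyme gene, at 3746 ± 401 FPKM with PBS and Adgre1, which encodes F4/80, at 170 ± 27.2 FPKM (SD, n = 3). With vesicles 8 of the 12 were higher and 1 was lower, against 18.4% and 35.6% of all genes tested. The list summed to 13097 to 14576 FPKM, against 4549 to 5546 FPKM with PBS. Lyz2 rose to 10862 ± 902 FPKM and Adgre1 to 1824 ± 183 FPKM, while Cd68, a lysosomal marker, fell from 411 ± 35.3 to 202 ± 11.7 FPKM. The part of these shifts in the values of the family was not tested. Stromal transcripts were present too. The 24 stromal markers, such as collagen genes, were each detected in some library, and 19 of them were high enough for the test. Lum and Thy1 were at 0 FPKM in PBS replicate 1. The list summed to 349 to 852 FPKM with PBS and 464 to 1139 FPKM with vesicles, and replicate 2 held the highest sum in both groups. Of 9 osteoblast markers measured, Dmp1 and Phex were under 0.1 FPKM in every library, and the list summed to 1.82 to 4.54 FPKM. In these bulk samples, fewer cells of a type and less RNA per cell cannot be told apart.

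Mmp13, Mmp12 and Mmp8 lie in 1 stretch of MMP genes on chromosome 9, all on its plus strand (GRCm38, GENCODE M21 annotation), at 7272514 to 7283331, 7344381 to 7369499 and 7558456 to 7568485, with Mmp1b, Mmp3 and Mmp10 between Mmp12 and Mmp8. Their transcripts behaved differently here: Mmp12 fell, Mmp8 rose and Mmp13 was not called. Their promoters are therefore shown with that of Mmp14 (plus strand of chromosome 14, gene at 54431612 to 54445364), which had the largest rise among the 7 members with a promoter sequence. Each sequence is the RefSeq window (GRCm38.p6) from 250 bases before to 50 bases after the annotated start, on the plus strand, and for Mmp12 it belongs to the second of its annotated starts. Capitals mark matches to 3 motifs searched on both strands. The AP-1 motif was spelled TGANTCA. The TATA motif was spelled TATAAA. The PU.1 motif was spelled GAGGAAGT.
Mmp13, chr9:7272264-7272563: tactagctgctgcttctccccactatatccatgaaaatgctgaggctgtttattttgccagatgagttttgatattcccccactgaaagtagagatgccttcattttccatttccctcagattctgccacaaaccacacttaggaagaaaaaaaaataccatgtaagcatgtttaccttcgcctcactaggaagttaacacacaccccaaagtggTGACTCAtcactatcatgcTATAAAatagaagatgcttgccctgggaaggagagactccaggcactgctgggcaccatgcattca
Mmp12, chr9:7347124-7347423: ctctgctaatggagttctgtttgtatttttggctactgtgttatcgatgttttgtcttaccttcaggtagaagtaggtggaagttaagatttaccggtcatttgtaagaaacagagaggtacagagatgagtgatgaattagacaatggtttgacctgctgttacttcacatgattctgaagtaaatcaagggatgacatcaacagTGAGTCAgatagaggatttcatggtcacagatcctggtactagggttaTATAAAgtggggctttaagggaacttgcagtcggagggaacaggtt
Mmp8, chr9:7558179-7558478: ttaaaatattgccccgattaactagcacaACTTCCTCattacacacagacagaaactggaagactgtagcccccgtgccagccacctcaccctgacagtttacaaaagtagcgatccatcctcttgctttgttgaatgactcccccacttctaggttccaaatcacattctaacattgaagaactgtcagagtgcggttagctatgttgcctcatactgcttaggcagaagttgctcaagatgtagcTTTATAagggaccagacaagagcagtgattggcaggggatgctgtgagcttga
Mmp14, chr14:54431348-54431647: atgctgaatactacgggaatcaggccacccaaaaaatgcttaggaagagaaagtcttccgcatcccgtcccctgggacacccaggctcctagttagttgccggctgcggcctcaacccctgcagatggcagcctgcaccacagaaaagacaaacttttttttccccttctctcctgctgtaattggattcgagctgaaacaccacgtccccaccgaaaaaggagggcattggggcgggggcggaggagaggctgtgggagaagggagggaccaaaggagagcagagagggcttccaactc

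Counting from 1 at the first base shown, the AP-1 motif stands at 216 to 222 in Mmp13 and at 207 to 213 in Mmp12. Each is followed by a TATAAA match, at 235 to 240 and at 255 to 260. Counted from the annotated start, these TATAAA matches begin at -16 in Mmp13 and at 5 in Mmp12. That of Mmp12 thus lies after the start. Mmp8 holds the PU.1 motif at 30 to 37 and a TATAAA match at 248 to 253, which begins at -3 from the annotated start. Both are on the other strand. The window at the first annotated start of Mmp12, which is not shown, holds a PU.1 match as well, at 163 to 170 on the other strand. Mmp14 holds none of these motifs, and a search for the NF-κB motif matched no window of the 7 members that had one. Mmp2, Mmp9 and Mmp19 had no promoter window, so theirs were not searched for any motif. Of 32851 promoter windows of this length, 7.81% hold the AP-1 motif, 13.6% the TATA motif, 3.20% the PU.1 motif and 4.51% the NF-κB motif. A match describes the letters alone.

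With vesicles, 4 members were higher (Mmp9, Mmp14, Mmp8 and Timp3), 3 were lower (Mmp12, Timp2 and Mmp19) and 3 were not called (Mmp2, Mmp13 and Timp1), by limma on log2(FPKM + 1) with a Benjamini-Hochberg adjusted p under 0.05. The test ran over 13009 genes, of which 54% were called (18.4% higher and 35.6% lower), so 7 calls among 10 genes do not set the family apart. The same 7 members had no overlap between the libraries of the groups, a state shared by 63.8% of all genes tested. The median change was 0.50 over the 10 members and -0.12 over all genes tested (log2 scale). After median-of-ratios scaling, which moves the median of all genes to -0.0024, and after quantile normalization, these 7 calls and their directions were the same. The split of all calls did move, from 34.1% higher to 50.5% and 48.9% higher.

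**Figure D1:**
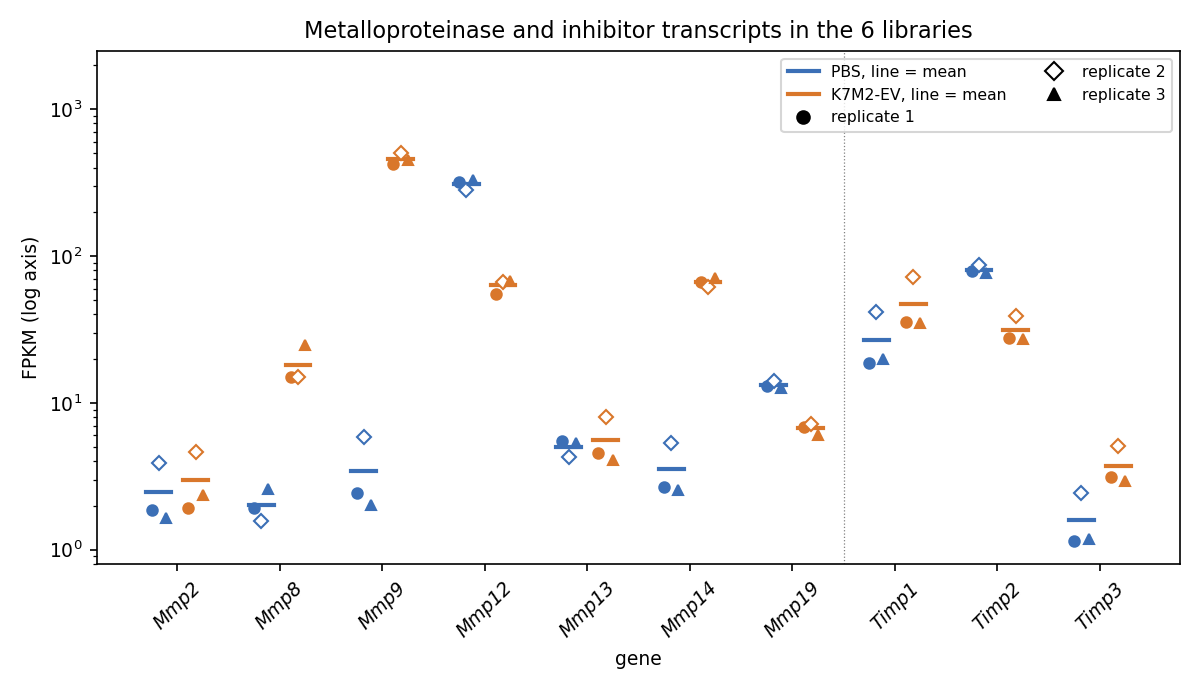
FPKM (log axis) of the 7 metalloproteinase genes and, right of the dotted line, the 3 inhibitor genes in each library (circle, replicate 1; open diamond, replicate 2; triangle, replicate 3), with PBS in blue, K7M2-EV in orange and a line at each group's mean. Mmp9 went from 3.42 to 459 FPKM on average and Mmp12 from 310 to 63.0 FPKM, while the open diamonds of Mmp2, Mmp9, Mmp19, Timp1, Timp2 and Timp3 are the highest symbols of both groups.

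Among the gelatinases, which cut denatured collagen and type IV collagen of basement membranes, Mmp9 was at 2.43, 5.81 and 2.02 FPKM in PBS replicates 1 to 3 and at 420, 504 and 453 FPKM in K7M2-EV replicates 1 to 3. All vesicle libraries stood far above all PBS libraries, and PBS replicate 2 was the highest of its group. The log2 change was 6.79 (SE 0.298, adjusted p = 1.13e-05), rank 6 from the highest of 13009 genes. Without both libraries of replicate 2 it was 7.09. The other gelatinase gene, Mmp2, a product typical of fibroblasts, was at 1.88, 3.93 and 1.65 FPKM with PBS and at 1.93, 4.61 and 2.35 FPKM with vesicles. Its groups overlapped and replicate 2 was the highest in each. Mmp2 was not called, with a change of 0.18 and a 95% confidence interval of -0.59 to 0.96 (adjusted p = 0.653), and it was not called with the replicate number as a block either (interval -0.03 to 0.40).

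Mmp14 encodes the membrane-type collagenase MT1-MMP, which acts at the cell surface and activates other proenzymes. It was at 2.69, 5.32 and 2.55 FPKM with PBS and at 67.0, 61.1 and 71.4 FPKM with vesicles. The groups lay far apart, and replicate 2 was the highest of the PBS group and the lowest of the vesicle group. The log2 change was 3.95 (SE 0.222, adjusted p = 2.94e-05), rank 35 from the highest. Within the replicate numbers the vesicle level was 24.9, 11.5 and 27.9 times the PBS level.

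The collagenases, which cut intact fibrillar collagen, gave a rise and a gene without a call. Mmp8, the neutrophil collagenase gene, was at 1.91, 1.57 and 2.60 FPKM with PBS and at 15.0, 14.9 and 24.6 FPKM with vesicles. The groups did not overlap, and replicate 3 was the highest in both. The log2 change was 2.64 (SE 0.217, adjusted p = 0.000134). Mmp13, the collagenase of osteoblasts and cartilage, was at 5.50, 4.26 and 5.33 FPKM with PBS and at 4.57, 7.98 and 4.10 FPKM with vesicles. Replicate 2 was the lowest library with PBS and the highest with vesicles, so that the groups overlapped. The change was 0.08 (interval -0.45 to 0.61, adjusted p = 0.779). Without both libraries of replicate 2, Mmp13 was called lower by a small amount, at -0.27 (SE 0.0744, adjusted p = 0.0398), and over all alternatives its adjusted p ran from 0.0398 to 0.964.

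Mmp8 and Mmp9 are also genes of neutrophil granules, so neutrophil markers were read beside them. The 13 markers measured summed to 10.4 to 16.4 FPKM with PBS and 94.2 to 98.2 FPKM with vesicles. S100a8, Lcn2 and Csf3r made up most of the vesicle sum, averaging 39.5, 32.6 and 20.3 FPKM in that group. Of 5 tested, 4 were called higher, against 18.4% of all genes tested, and S100a9 was not called. S100a8 and Csf3r were above 1 FPKM in every library, whereas Lcn2 and Camp were below it in all PBS libraries and entered the test through the vesicle libraries alone. Without any 1 of the K7M2-EV libraries the count was 2. The granule genes Mpo, Prtn3 and Ltf were under 0.1 FPKM in every library, and Ly6g and Cxcr2 were listed at 0 in all 3 vesicle libraries. Ly6g was at 0 in PBS replicates 2 and 3 as well. Apart from Mpo and the 4 genes called higher, every marker measured had a lower mean in the vesicle group. The mean of S100a9 went from 0.783 to 0.517 FPKM, with overlapping groups, and that of Cebpe from 0.335 to 0.0577 FPKM.

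Mmp12, the macrophage elastase, was the most abundant member with PBS, at 320, 280 and 330 FPKM, and stood at 55.0, 66.5 and 67.5 FPKM with vesicles. Every vesicle library was below every PBS library. The log2 change was -2.28 (SE 0.104, adjusted p = 1.33e-05), rank 111 from the lowest of all genes tested. Mmp19, a broad-acting secreted MMP, was at 13.0, 14.2 and 12.7 FPKM with PBS and at 6.83, 7.23 and 6.08 FPKM with vesicles, a change of -0.89 (SE 0.0738, adjusted p = 0.000139) in which the vesicle level was 0.525, 0.510 and 0.479 times the PBS level within the replicate numbers. Of its exon bases, 22.3% also belong to Tmem198b on the opposite strand, which was at 1.63 to 2.54 FPKM. Whether counting used strand is not stated in the labels, so reads there cannot be told apart.

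Among the inhibitors, Timp2, which most cells make steadily, was at 79.3, 86.7 and 76.7 FPKM with PBS and at 27.8, 38.9 and 27.2 FPKM with vesicles. The groups did not overlap and replicate 2 was the highest in each. The log2 change was -1.36 (SE 0.142, adjusted p = 0.000376).

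Timp1, the inducible inhibitor that pairs with MMP-9, was at 18.8, 41.5 and 19.7 FPKM with PBS and at 35.5, 71.8 and 34.8 FPKM with vesicles. Replicate 2 stood at about the same distance above the others in both groups, and PBS replicate 2 was above vesicle replicates 1 and 3. In the fit without a block, Timp1 was not called, with a change of 0.82 (interval -0.13 to 1.76, adjusted p = 0.125). The vesicle level was 1.89, 1.73 and 1.76 times the PBS level within replicates 1 to 3. With the replicate number as a block the change of 0.82 was called (SE 0.0514, adjusted p = 0.000424). It was also called with replicate 2 left out of both groups (0.84, adjusted p = 0.000769) and without PBS replicate 2 alone (1.17, adjusted p = 0.0342).

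Timp3, an inhibitor that stays bound to the matrix and also blocks ADAM-type sheddases, was at 1.15, 2.43 and 1.19 FPKM with PBS and at 3.11, 5.10 and 2.96 FPKM with vesicles. The lowest vesicle library stood above the highest PBS library. The change was 0.87 (SE 0.242, adjusted p = 0.0222). The call was lost without PBS replicate 1 (adjusted p = 0.0742) or 3 (0.0772), without K7M2-EV replicate 2 (0.0511), and with replicate 1 (0.114) or replicate 3 (0.108) left out of both groups. With the replicate block its adjusted p was 0.000556. Timp3 shares 21.3% of its exon bases with Syn3 on the opposite strand, which was at most at 0.0473 FPKM.

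**Figure D2:**
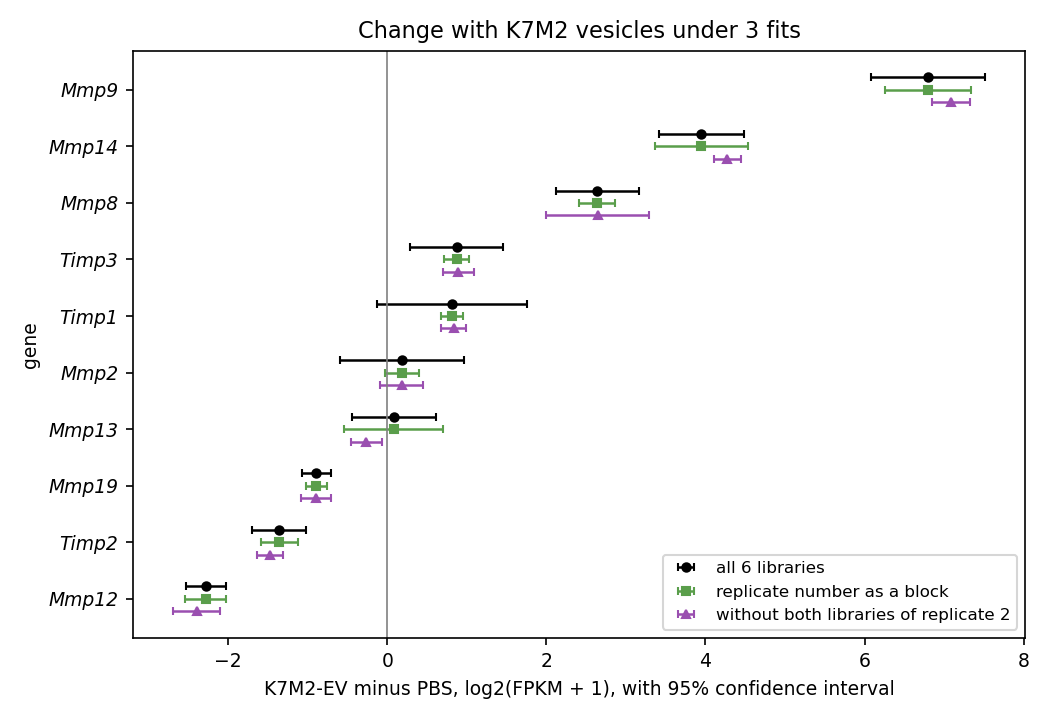
Difference of K7M2-EV from PBS in log2(FPKM + 1) for each gene, with 95% confidence intervals, in the fit on all 6 libraries (black circles), with the replicate number as a block (green squares) and without both libraries of replicate 2 (purple triangles). The interval of Timp1 reaches below 0 only in the fit on all 6 libraries, and that of Mmp13 lies below 0 only without replicate 2.

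Replicate 2 was compared with the mean of replicates 1 and 3 of its own group, because stromal transcripts were high there. The summed stromal list in replicate 2 was 2.28 times the mean of the other libraries with PBS and 2.42 times with vesicles. Of the 19 stromal genes tested, 17 were over 1.5 times in both groups, against 2.39% of all genes tested. Mmp2 (2.22 with PBS and 2.15 with vesicles), Timp1 (2.16 and 2.04) and Timp3 (2.08 and 1.68) were the 3 members over 1.5 times in both groups. With PBS all 3 stood near the stromal median of 2.25, while with vesicles Timp3 stood below each of the 19 stromal genes except Lox (1.27). By rank alone, 6 members (these 3 with Mmp9, Mmp19 and Timp2) were highest in replicate 2 in both groups, as were 21.1% of all genes tested.

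Mmp9 and Mmp14 were high in replicate 2 with PBS alone, at 2.61 and 2.03 times the other libraries, and were at 1.15 and 0.883 times with vesicles. Mmp13 showed the opposite pattern, at 0.787 times with PBS and 1.84 times with vesicles. Timp2 was at 1.11 and 1.42 times, Mmp19 at 1.10 and 1.12 times, Mmp12 at 0.862 and 1.08 times and Mmp8 at 0.694 and 0.752 times. The macrophage markers summed to 0.825 and 1.04 times the other libraries. Between the groups, 1 of the 19 stromal genes rose (Lox) and none fell in the fit without a block (by limma, 1 of 19 at an adjusted p under 0.05), while the replicate block gave 9 higher and 4 lower and leaving replicate 2 out gave 9 and 2. The part of stromal transcripts in the values of Timp1, Timp3 and Mmp2 was not tested.

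**Figure D3:**
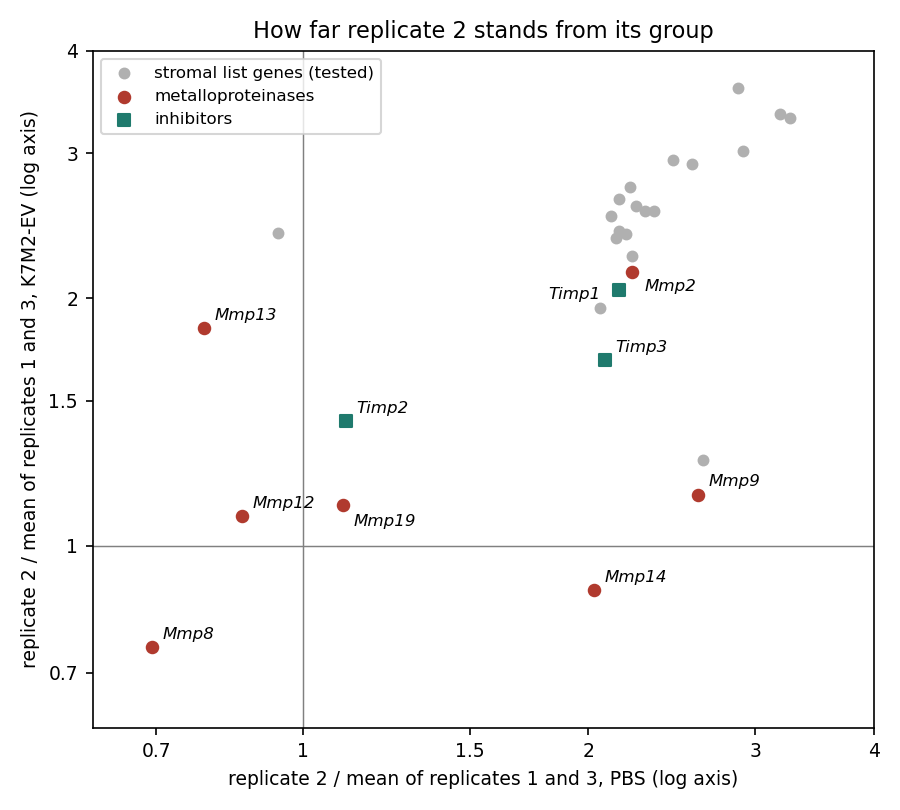
Level in replicate 2 divided by the mean of replicates 1 and 3, in the PBS group (x axis, log) and the K7M2-EV group (y axis, log), for the metalloproteinases (red circles), the inhibitors (green squares) and the 19 tested stromal genes (grey). Mmp2, Timp1 and Timp3 lie at 2.08 to 2.22 on the x axis, among the grey points, and at 2.15, 2.04 and 1.68 on the y axis, where Timp3 is below all grey points but that of Lox. Mmp8 lies below 1 on both axes.

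Summed per library, the 7 metalloproteinase genes came to 340 ± 21.8 FPKM in the PBS group and 622 ± 48.1 FPKM in the vesicle group (SD, n = 3). Mmp12 made up 91.1% ± 1.98 of that sum with PBS and 10.1% ± 0.553 with vesicles. Mmp9 made up 0.568% to 1.84% and 72.0% to 75.6%, and Mmp14 1.06% ± 0.545 and 10.7% ± 1.38. The leading transcript of the family thus passed from the macrophage elastase gene to the gelatinase gene. The 3 inhibitor genes summed to 97.7 to 131 FPKM with PBS and 64.9 to 116 FPKM with vesicles, ranges that overlapped. Within the replicate numbers the sum was lower with vesicles each time, at 99.3 and 66.4 FPKM in replicate 1, 131 and 116 FPKM in replicate 2 and 97.7 and 64.9 FPKM in replicate 3. Timp2 held 75.0% ± 7.48 of the inhibitor sum with PBS, and with vesicles Timp1 held 56.3% ± 4.90.

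The ratio of metalloproteinase to inhibitor transcripts was 3.50, 2.41 and 3.65 with PBS and 8.59, 5.75 and 9.70 with vesicles. Replicate 2 had the lowest ratio in both groups. For the pair of Mmp9 and Timp1 the ratio was 0.130, 0.140 and 0.102 with PBS and 11.8, 7.01 and 13.0 with vesicles. For Mmp14 and Timp2 it was 0.0339, 0.0614 and 0.0333 with PBS and 2.41, 1.57 and 2.63 with vesicles. These are ratios of transcript levels, given as a description with no test.

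**Figure D4:**
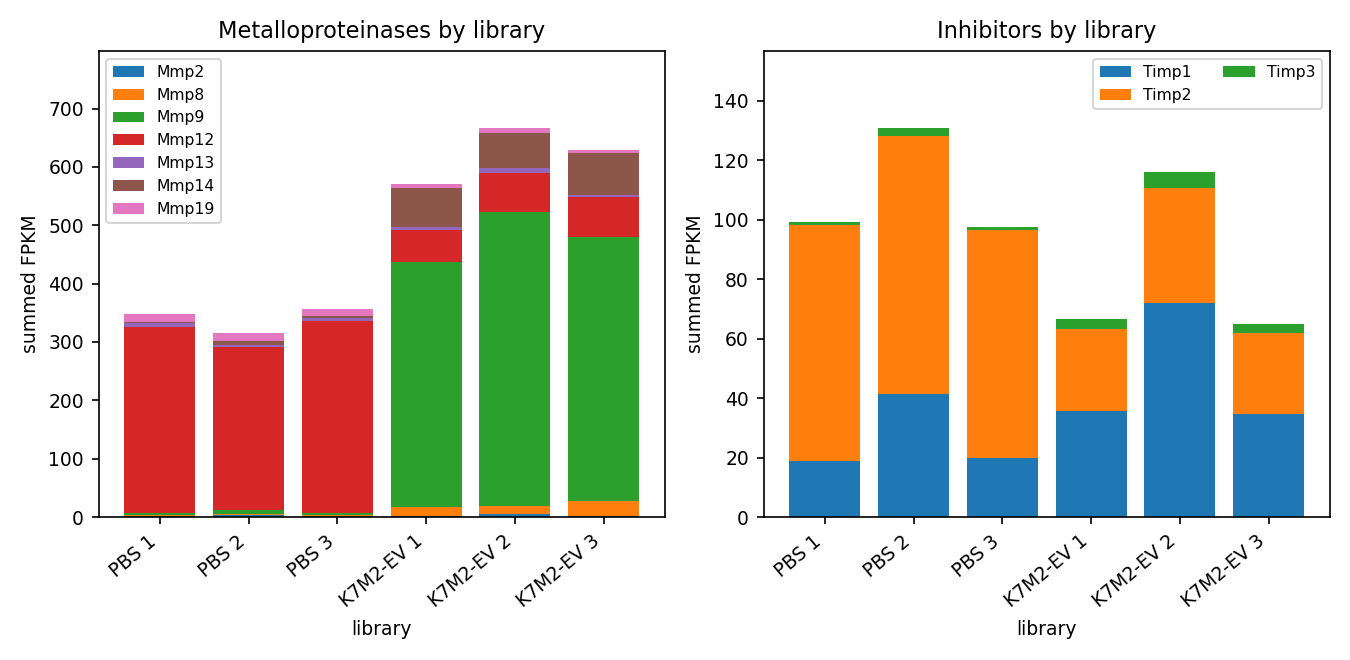
Summed FPKM of the 7 metalloproteinase genes (left) and the 3 inhibitor genes (right) in each of the 6 libraries, with 1 colour per gene. Mmp12 fills most of the PBS bars and Mmp9 most of the K7M2-EV bars on the left, and on the right the PBS replicate 2 and K7M2-EV replicate 2 bars are the tallest of their groups.

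In order of level with PBS, Mmp12 stood above Timp2, then Timp1, Mmp19 and Mmp13, each without overlap with the next down to Mmp19 and Mmp13. Below these, the ranges of Mmp13, Mmp14, Mmp9, Mmp2, Mmp8 and Timp3 ran into each other. With vesicles, Mmp9 stood alone above Mmp14, Mmp12 and Timp1, whose ranges overlapped, as did those of Timp1 and Timp2. Mmp8 and Mmp19 followed, apart from their upper neighbours. The ranges of neighbouring genes among Mmp19, Mmp13, Timp3 and Mmp2 overlapped.

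The rest of the family was measured at low levels. Of 17 further MMP and TIMP genes listed, 13 had values, 10 of these were under 1 FPKM in every library and only Mmp23 passed the filter; it was not called (adjusted p = 0.671). Mmp3, the stromelysin gene in the same stretch of chromosome 9, was chosen after its values were seen. It was listed at 0, 0 and 0.0216 FPKM with PBS and at 0.991, 3.90 and 0.507 FPKM with vesicles, again highest in replicate 2, and was too low for the test. Mmp25, also untested, was higher with vesicles without overlap, from 0.141 ± 0.0288 to 0.606 ± 0.0330 FPKM. The untested Mmp15, Mmp24 and Mmp27 were lower without overlap, Mmp27 from 1.02 ± 0.0883 to 0.698 ± 0.0681 FPKM. These genes too were picked after their values were seen.

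The list for activation, docking and clearance of MMPs had 27 genes and 17 of them could be tested. Of these, 2 rose, 8 fell and 7 missed the threshold (median -0.48). Over all genes tested, 18.4% rose and 35.6% fell. Lcn2, which rose, entered the test through the vesicle libraries alone, and Itgb3, which fell, through the PBS libraries alone. Without any 1 of the K7M2-EV libraries, 1 rose. Plau, the urokinase gene, whose product makes the plasmin that activates pro-MMPs, fell from 274 ± 40.7 to 12.9 ± 2.11 FPKM. The higher genes were Serpinb2, an inhibitor of plasminogen activators, from 1.57 ± 0.900 to 13.5 ± 4.75 FPKM, and Lcn2, whose product binds MMP-9, from 0.0548 ± 0.0215 to 32.6 ± 2.06 FPKM. Lrp1, the endocytic receptor that clears MMPs and TIMPs, was chosen after its values were seen and fell from 200 ± 11.4 to 87.4 ± 2.57 FPKM (adjusted p = 2.23e-05). Furin, the protease that activates pro-MMP-14, was also chosen after its values were seen. It fell from 7.36 ± 0.146 to 4.88 ± 0.477 FPKM (adjusted p = 0.0011).

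Of 20 genes of related metalloproteinases, some but not all of which TIMPs inhibit, 10 could be tested. Of these, 4 rose, 4 fell and 2 missed the threshold (median 0.08), against 18.4% higher and 35.6% lower over all genes. Adam19 rose from 5.21 ± 1.04 to 9.92 ± 0.568 FPKM, and the smaller rises were those of Adam15, Adam17 and Adam9. Adam8, a leukocyte surface protease gene, fell from 176 ± 14.2 to 53.1 ± 6.68 FPKM and Adamts1, a proteoglycan-cutting protease gene, from 9.37 ± 2.34 to 3.07 ± 1.59 FPKM, with Adamts10 and Adam10 also lower. Adam17, the sheddase of TNF that Timp3 blocks, was chosen after its values were seen and went from 21.2 ± 1.66 to 28.6 ± 1.83 FPKM (adjusted p = 0.00437).

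The genes most like a member were taken as those with the smallest Euclidean distance between their 6 centred log2(FPKM + 1) values, among 6111 genes averaging 5 FPKM or more. For Mmp9 they were H2-M2, Fpr1 and Marco (distances 0.945, 0.980 and 0.997), which were at 117, 127 and 139 FPKM on average with vesicles. With PBS they averaged 0.0904, 0.0988 and 0 FPKM, below the 3.42 FPKM of Mmp9, and they reached the 5 FPKM mean through the vesicle libraries alone. For Mmp14 they were Pilra, Nfkbia and Pim2 (0.440, 0.620 and 0.643), and for Mmp8 Ccl4, Icam1 and Aif1 (0.541, 0.561 and 0.578). Mmp12 lay nearest Lonrf3, Sulf2 and Cd9 (0.197, 0.198 and 0.220), Mmp19 nearest B3gnt3, Rhoc and Sgpp1 (0.119, 0.124 and 0.139) and Timp2 nearest Ndst1, Mical2 and Hist2h2aa2 (0.217, 0.234 and 0.238). For Timp1 they were Creb3l1, Loxl2 and Thbs2 (0.264, 0.269 and 0.372). Mmp13 lay nearest Mrps21, Ankrd13a and Nagpa (0.249, 0.300 and 0.306), whose group means differed little. Pilra and Pim2 (2.17 and 0.471 FPKM) also averaged under 5 FPKM with PBS, as did the members Mmp8, Mmp9 and Mmp14 (2.03, 3.42 and 3.52 FPKM). Lonrf3, Sulf2, B3gnt3 and Mical2 averaged under it with vesicles (4.38, 1.18, 4.21 and 4.79 FPKM). All of these thus reached the mean through 1 group. The distances describe 6 libraries and carry no test.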

How the data were processed

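RNA of 6 macrophage libraries was analysed from 1 deposited table per library. The authors deposited FPKM values for 26883 gene rows. Each library total was found by a search for the total that put most low values near whole reads. At that total, FPKM times exon length lay within 0.1 of a whole read for 72.2% to 73.1% of values worth at most 20 reads. Chance gives 20% for a total fixed beforehand, and the level for the best of many totals was not worked out. This spacing cannot tell FPKM from another unit scaled by exon length. Per the submitters' processing notes, GRCm38 was the build and the tools were HISAT2 2.1.0, StringTie 1.3.4b, CASAVA 1.8 and edgeR, with no role stated for any. Sample titles gave the groups and replicate numbers. A row without a value (1) and 47 rows of repeated symbols were dropped, keeping the row with the highest mean. Exon lengths, positions and overlaps came from GENCODE M21 on GRCm38, matched by symbol for 99.6% of genes; promoters came from RefSeq on GRCm38.p6 for 7 members.

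Genes that reached 1 FPKM in 3 or more libraries entered the test on log2(FPKM + 1), which understates changes of low genes, with limma 3.58.1 in R 4.3.3 (trend and robust settings, statmod 1.5.0), two-sided, and adjusted by Benjamini-Hochberg over 13009 genes at 0.05. The steps were run on simulated data in which far fewer genes changed than were called here and no replicate effect was set. That run does not measure how the fit behaves on these libraries. Python 3.11.15, pandas 2.3.3, numpy 2.4.6 and matplotlib 3.10.9 prepared tables and plots. Deviations from the group means correlated between libraries of the same number (0.317, 0.294 and 0.209 over genes). Between libraries of unlike number the values ran from -0.307 to 0.0232. Deviations within a group of 3 sum to 0, so these values are not independent. Pairing rests on the data alone, since no label states it. The calls come from the fit without a replicate block; the fit with the block is given beside them where it changes a call. The members and lists were chosen with earlier results of these data known. All members were named; of each list, the 3 called genes with the largest changes at a mean of at least 1 FPKM were named, and for members with a mean of at least 5 FPKM the 3 most alike genes, leaving out predicted and clone names. The alternatives changed the pseudocount, the filter, the scaling, the test (voom) or the libraries kept.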

Additional observations from a re-analysis of the deposited data

How the results depend on the processing

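Over 17 alternatives to the settings used, 156 of 168 member values kept their direction and their side of the threshold, among them all values of Mmp8, Mmp9, Mmp12, Mmp14, Mmp19 and Timp2. The number of members called higher ran from 3 to 5 and the number called lower from 3 to 4. Mmp2 and Timp3 could not be tested with the filter at 5 FPKM. With libraries left out, the change ran from -0.10 to 0.46 for Mmp2 and from -0.27 to 0.27 for Mmp13. The direction was reversed for Mmp2 without K7M2-EV replicate 2 (-0.10) and for Mmp13 without PBS replicate 2 (-0.02), without K7M2-EV replicate 2 (-0.17) and without both libraries of replicate 2 (-0.27); the cause was not tested. With the replicate block, which pairs the libraries by number, 5 members were called higher in place of 4, by the addition of Timp1 at 0.82, 3 were lower, and 7282 genes were called in all, against 7026 without it; it changed no other member's call. Timp3 lost its call in 5 settings that left out libraries. Genes called numbered 3945 with the filter at 5 FPKM, where 6409 were tested, and 3469 to 6223 with libraries left out. Leaving out libraries changed both the group sizes and the genes tested, and the part of each in these counts was not tested. With 2 vesicle libraries left, genes at 1 FPKM only with vesicles no longer met the filter. For the same reason the neutrophil list had 2 genes higher in place of 4, and the activation list 1 in place of 2. Without both libraries of replicate 2 the activation list still had 2 higher, of 15 tested. Lcn2 did not meet the filter there either, so a gene not called higher in the main fit was called higher in that setting. The other metalloproteinase list had 2 higher without both libraries of replicate 1 and 2 lower without those of replicate 3, in place of 4, and the 1 higher stromal gene was not called without either.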
